A study of Bos taurus with 147 samples.

Results

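The breed difference under high and low diet was measured on the 3 arrays, of 147 in the series, that set longissimus dorsi muscle of Piedmontese x Hereford cattle (the PH cross) directly against that of Wagyu x Hereford cattle (the WH cross) fed the same diet. They were chosen from the labels alone. On 2 arrays, replicates 1 and 2, both crosses were on the low diet and the PH cross was labelled with Cy5, the red dye. On 1 array both crosses were on the high diet and the WH cross was labelled with Cy5. The other 4 arrays of the same experiment compared the 2 diets within each cross, so that all 7 formed a closed loop over 4 groups. The labels give neither the composition of the diets nor the age or sex of the cattle, and they do not say whether an RNA sample was 1 animal or a pool. Hence p-values measure the spread between arrays only, which may be technical, and the loop holds no array with a purebred control. Both crosses share Hereford parentage.

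Piedmontese cattle are a double-muscled beef breed in which a missense mutation of myostatin (GDF8), a secreted inhibitor of muscle growth, is common, and muscle lacking myostatin activity has larger and more numerous fibres, of which more are fast and glycolytic. Wagyu cattle are known for depositing fat within the muscle. Slow fibres contract with their own set of myosin light chains and troponins and burn fatty acids in mitochondria, whereas fast fibres rely more on glycolysis, and both kinds mix in the longissimus. The genotype of the animals behind these arrays at the myostatin gene is not stated in the sources used here.

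The arrays carried 19200 cDNA elements, printed as neighbouring duplicates. A gene name was given for 4304 of them, which stood for 969 genes. Values were log2 ratios of Cy5 over Cy3, and each array was centred on its own median. All values below are signed so that a negative value means less RNA in the PH cross, and the elements of a named gene were averaged on each array. The direction rests on the dye labels and is therefore likely rather than proven. The titles of the arrays that compare the diets within the WH cross name the high diet first, while their labels put the low diet in Cy5. The labels were followed, and those arrays help to set the fitted values for each diet. On fetal arrays of the same submission COL3A1 lay between 2.67 and 4.07 where fetal muscle of the PH cross was in Cy5 against newborn muscle, and between -2.63 and -2.42 where newborn muscle of the WH cross was in Cy5 against fetal muscle, which is the course of a collagen that declines towards birth, but those arrays are in another table. In whole muscle, fewer cells of a type and less RNA per cell cannot be told apart. The files hold ratios only, so that the labelled tissue could not be checked by the level of a marker.

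The 3 arrays were of unequal quality. Usable values were present for 87.6% of the elements on the first low diet array and 86.7% on the high diet array, but for 63.4% on the second low diet array. The median absolute deviation of the log2 ratios was 0.25 on the first low diet array, 0.32 on the high diet array and 0.47 on the second low diet array. On the first low diet array 44.6% of the first 1200 elements and 18.5% of the next 1200 lay below -2, against 0.717% to 3.49% in the other stretches of 1200. The first stretch held 3.88% to 9.62% on the other 6 arrays. Among the genes described below, all elements of LDHB, GYG1, CFD and PTX3 were among elements 1 to 2400, as were 2 of 4 elements each of AQP7, CD36, IGFBP3 and ATP5IF1 and 2 of 6 of NEB. Further genes below also had elements there. Examples are 2 of 6 elements each of ADIRF, COX7C, RPS3A and RPL8, and 2 of 8 each of GPI and ACTN3. The same held for 8 of 32 elements of CKM, 6 of 26 of TNNC1 and 8 of 50 of ENO3.

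**Figure D1:**
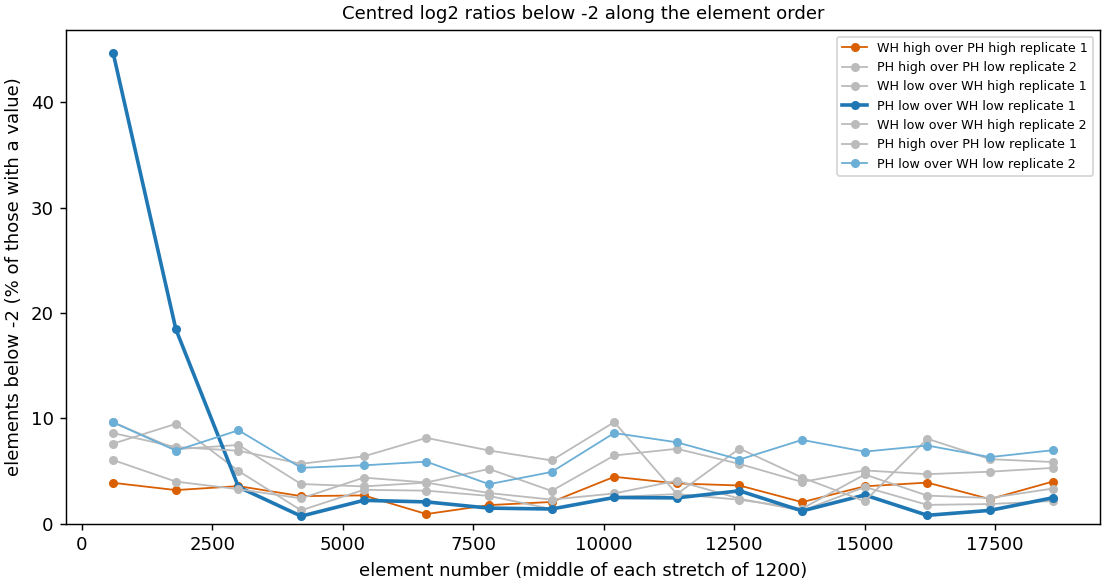
Share of elements with a centred log2 ratio below -2 (vertical axis, % of elements with a value) along the order of the elements (horizontal axis, stretches of 1200) on the 7 arrays of the diet loop. The first low diet breed array (dark blue) stands at 44.6% and 18.5% in the first 2 stretches, and at 3.49% or less in all later ones.

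The arrays also differed in which genes they put on which side. Over the 429 named genes with a value on all 7 arrays, signed as PH over WH, Pearson's r was -0.23 between the 2 low diet arrays, 0.05 between the first low diet array and the high diet array, and -0.42 between the second low diet array and the high diet array. Spearman's rho was -0.07, 0.03 and -0.33 for the same pairs. These are correlations across genes, which are not independent replicates. The mean over both diets, in which a dye effect common to the arrays cancels, was taken as the leading comparison. The dye term of the loop called 0 features (0%), with 227 (6.45%) at an unadjusted p under 0.05, of which 65 (1.85%) were below 0, beside 46.8% of all features with a dye term below 0.

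No feature passed the test. Of 3521 features with a value on all 7 arrays, 0 (0%) differed between the crosses in the mean over both diets by limma with Benjamini-Hochberg adjustment over all features, and the smallest adjusted p was 0.331. An unadjusted p under 0.05 was found for 81 features (2.3%), 51 of them lower in the PH cross (1.45%), and for 12 of 429 named genes (2.8%). The low diet alone gave 0 features (0%), with 108 (3.07%) at an unadjusted p under 0.05, 63 of them lower (1.79%), and the high diet alone gave 0 features (0%), with 55 (1.56%), 32 of them lower (0.909%). The breed by diet interaction also gave 0 (0%), with 64 (1.82%), 30 of them below 0 (0.852%). Fitted values lay below 0 for 49.6% of all features on the low diet, 66.9% on the high diet and 36.3% in the interaction. With a median standard error of 0.35 for a named gene on the log2 scale, small differences could not be seen with these 7 arrays. All gene values below are therefore given as measured, with no gene called, and each had an adjusted p of 0.999 in the mean over both diets.

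The smallest unadjusted p among named genes with the same sign on all 3 arrays belonged to MUSTN1, CREG1, CA3 and MYL2, all lower in the PH cross. MUSTN1 encodes a small nuclear protein of the musculoskeletal system that is induced in growing and regenerating muscle. It stood at -0.48 and -0.70 on the low diet arrays and at -1.21 on the high diet array, and the fitted mean was -0.90 ± 0.15 (SE, unadjusted p = 0.00279, limma). The gene was on 10 elements, and 10 of 10, 7 of 9 and 10 of 10 elements with a value lay below 0 on the 3 arrays, where by construction 50% of all elements did. The medians of its elements were -0.54, -0.34 and -1.22. The average on the second low diet array holds an element at -3.32.

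MYL2, the regulatory light chain of slow and cardiac myosin, stood at -0.60, -0.86 and -0.74 on the first low, second low and high diet arrays. The 3 values lay within 0.26 of one another, and the fitted mean was -0.74 ± 0.17 (SE, unadjusted p = 0.0106, limma). Of its 62 elements, 58 of 60, 56 of 56 and 58 of 62 with a value lay below 0 on the 3 arrays, and the medians of the elements were -0.62, -0.64 and -0.88. CA3, the carbonic anhydrase that is abundant in slow fibres and in adipocytes, stood at -0.60, -1.03 and -0.70, with a fitted mean of -0.76 ± 0.16 (SE). Of its 34 elements, 27 of 32, 21 of 22 and 31 of 34 lay below 0. CREG1, a secreted glycoprotein that restrains cell growth, had only 1 pair of elements, and stood at -0.69, -0.54 and -1.15 with a fitted mean of -0.88 ± 0.15 (SE). For these 4 genes no array average was near 0, on either diet, but 1 sign on all 3 arrays was a condition of the ranking.

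**Figure D2:**
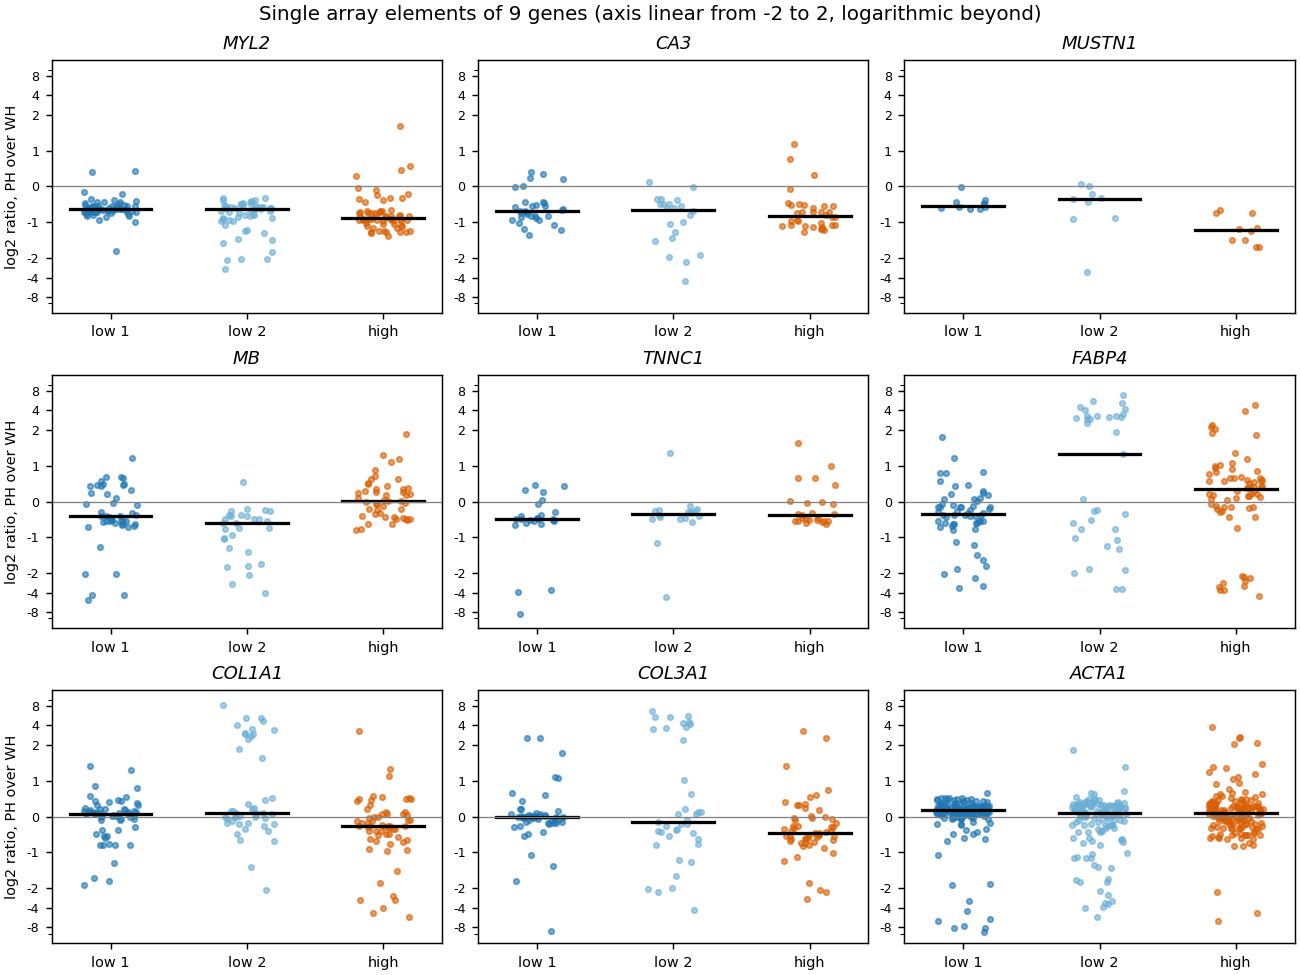
Log2 ratio of PH over WH (vertical axis, linear from -2 to 2 and logarithmic beyond) of each single element of 9 genes on the first low, second low and high diet arrays, with the median as a black line. Most elements of MYL2, CA3 and MUSTN1 lie below 0 on each array, from 7 of 9 for MUSTN1 on the second low diet array to 56 of 56 for MYL2 there, whereas those of FABP4 and COL3A1 spread to both sides, most widely on the second low diet array.

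ATP5F1A and LDHB followed among the lower genes by size of p, but their elements differed from array to array. ATP5F1A, the alpha subunit of mitochondrial ATP synthase, stood at -0.99, -1.74 and -0.32. On the first low diet array only 2 of its 6 elements lay below 0 and the median element was 0.05, while the other arrays read 2 and 4 of the elements. LDHB, the lactate dehydrogenase subunit of oxidative tissues, stood at -2.99, -1.47 and -0.14, and all 4 of its elements were among elements 1 to 2400. That array is the one with many very low ratios among those elements, and the part of this in the LDHB value was not tested.

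The remaining lower genes by the same ranking held several of the contractile apparatus and of fibre metabolism. They were TNNT1 and TNNC1 (slow troponins T and C, -0.44 and -0.43 in the mean over both diets), RRAD (a small GTPase that inhibits calcium channels, -0.31), SLC25A4 (the muscle ADP/ATP carrier, -0.33), CRYAB (a small heat shock protein of the Z-disc, -0.31), LOC786430 (-0.54), FXYD1 (phospholemman, a regulator of the sodium pump, -0.52), NUP43 (a nuclear pore protein, -0.37) and MYBPC1 (slow myosin-binding protein C, -0.40). Their standard errors ran from 0.14 to 0.28. For SLC25A4 and CRYAB the average hid a split, since 3 of 11 and 8 of 20 elements lay below 0 on the first low diet array, and 1 of 9 and 7 of 20 on the second, against 10 of 12 and 19 of 22 on the high diet array.

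**Figure D3:**
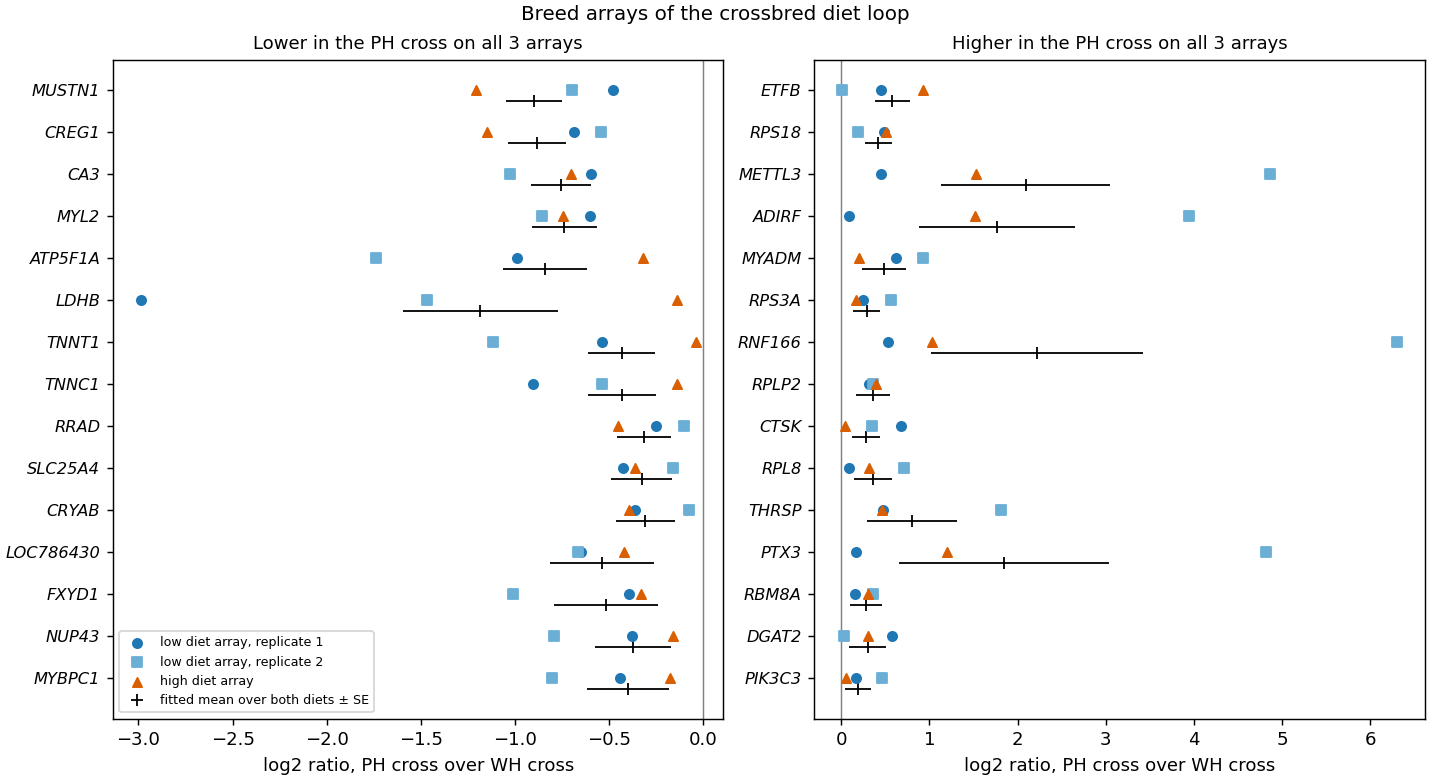
Log2 ratio of PH over WH (horizontal axes) on the 3 breed arrays for the 15 lower and 15 higher named genes with the smallest p and the same sign on all arrays, with the fitted mean over both diets and its SE as a black line. The values of MYL2 lie between -0.86 and -0.60, while METTL3, ADIRF, RNF166 and PTX3 are highest on the second low diet array.

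The fitted means of the slow fibre list lay below 0. All 11 of the tested genes of this list had a fitted mean below 0, beside 55.7% of the 429 named genes and 61.3% of all features, and their median was -0.40, beside -0.04 over the named genes and -0.07 over all features. Of the 11, 8 were below 0 on each of the 3 arrays (13.3% of named genes were). None was called, and MYL2 alone had an unadjusted p under 0.05. TNNT1 stood at -0.54, -1.12 and -0.04, and TNNC1 at -0.90, -0.54 and -0.14, so that the averages of both were nearest to 0 on the high diet array. The medians of the TNNC1 elements, which extreme elements move less, were -0.49, -0.34 and -0.36, and so did not show that order. TNNT1 was at -0.02 in the mean when only its elements with a value on all 7 arrays were used. MYBPC1 followed the same order at -0.44, -0.80 and -0.18. MB, the oxygen-binding myoglobin, stood at -0.51 and -0.96 on the low diet arrays but at 0.10 on the high diet array. TPM3, slow tropomyosin, stood at -0.08, -1.36 and -0.55, and MYL3, the slow essential light chain, at -0.03, -0.29 and -0.41.

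CSRP3, a Z-disc protein that senses stretch, went the other way about diet, at 0.10 and -0.10 on the low diet arrays and -1.01 on the high diet array. FHL1, a LIM protein of oxidative fibres, stood at -0.45, -0.09 and -0.24, and ACTN2, the Z-disc actinin of all fibres, at -0.07, -0.44 and -0.38. ATP2A2, the slow isoform of the calcium pump, was nearest to 0 in the mean, at -0.03 ± 0.16 (SE). By array, the median over the 11 genes was -0.44, -0.54 and -0.24. All 11 had a fitted value below 0 on the low diet (56.6% of named genes did) and 9 on the high diet (56.6% of named genes did).

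The fast fibre list showed no such lean in the mean over both diets. Of its 11 tested genes, 5 were lower and 6 higher in the PH cross, none was called and none had an unadjusted p under 0.05, and the median was 0.00 with a range from -0.24 to 0.14. By diet, 8 of the 11 had a fitted value below 0 on the low diet and 4 on the high diet (56.6% of named genes on each). MYL11, the fast regulatory light chain, stood at 0.12, -0.13 and 0.29, with a fitted mean of 0.14 ± 0.14 (SE). MYH1, the myosin heavy chain of fast 2X fibres, stood at 0.17, -1.06 and 0.09, and TNNT3, fast troponin T, at -0.01, -0.67 and -0.14. MYOZ1, a calcineurin-binding Z-disc protein of fast fibres, stood at -0.39, -0.20 and -0.01, with element medians of 0.01, 0.07 and -0.04. MYL1, the fast essential light chain, was at 0.01 ± 0.20 (SE) in the mean, and ACTN3, the actinin of fast fibres, at 0.00 ± 0.29 (SE). MYH7 was not among the named genes of the array, and MYH2 was named only on elements that also matched MYH1, which were not used, so that the MYH1 value may hold signal of that near-identical gene.

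By averages over elements, other genes of the fibre leaned below 0, though less than the slow list. In the sarcomere and Z-disc list 16 of 20 tested genes were lower in the PH cross, with a median of -0.20, and 7 were below 0 on all 3 arrays. ANKRD1, a stretch-responsive repressor of transcription, stood at -0.46, -1.01 and -0.10, and HSPB7, a small heat shock protein of the sarcomere, stood on the other side at 0.62, 0.96 and -0.22. NEB, the nebulin that sets thin filament length, stood at -2.93, -0.37 and -0.09, and on the first low diet array its 2 elements among elements 1 to 2400 lay below 0 and the other 4 did not. Of the 10 tested muscle markers 8 were lower, with a median of -0.16, a range of the fitted means from -0.87 to 0.01, and array medians of -0.11, -0.37 and 0.08. ACTA1, skeletal actin, stood at -0.22, -0.23 and 0.08, although only 34 of its 162 elements with a value lay below 0 on the first low diet array. Its element medians were 0.18, 0.10 and 0.11, above 0 on each array. CKM, muscle creatine kinase, stood at -0.38, -0.07 and -0.05, DES, desmin, at 0.00, -0.45 and -0.35, ENO3, muscle enolase, at -0.56, -0.02 and 0.15, and TCAP, telethonin, at 0.03, -0.29 and 0.15. Of the ENO3 elements with a value only 11 of 46 lay below 0 on the first low diet array, and without elements 1 to 2400 its fitted mean was 0.09. The element medians of ENO3 were 0.16, 0.14 and 0.14, and those of CKM -0.005, -0.20 and 0.11. On the first low diet array the averages of ACTA1, CKM and ENO3 thus lay below their element medians. None of these was called. By averages over elements, the array medians of the slow list were below those of the muscle markers on each of the 3 arrays. MB is in both lists, and the part of the muscle markers in the slow fibre values was not tested.

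Glycolytic and glycogen enzymes did not lean to one side in the mean over both diets, with 9 of 17 tested genes lower and a median of -0.02. Fitted values lay below 0 for 12 of the 17 on the low diet and 7 on the high diet. LDHA, the lactate dehydrogenase subunit of fast muscle, stood at 0.13, -0.03 and 0.24, ALDOA, muscle aldolase, at 0.27, -0.30 and 0.03, GPI, glucose-6-phosphate isomerase, at -0.62, 0.32 and 0.74, and FBP2, the muscle fructose bisphosphatase, at -0.04, -0.64 and -0.42. The median of the GPI elements on the first low diet array was 0.29. GYG1, glycogenin, stood at -6.18 on the first low diet array, from 1 element among elements 1 to 2400, and at 0.03 and 0.24 on the others. Of 4 tested genes of creatine and adenylate phosphotransfer 3 were lower, with a median of -0.09. AK1, adenylate kinase, spread from -1.31 on the second low diet array to 1.86 on the high diet array. In the short list of calcium handling and ion ATPases 2 of 4 were lower, with a median of 0.00.

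The mitochondrial lists were small and uneven. Cytochrome c oxidase subunits were lower in 7 of 9 cases, with a median of -0.09 and 0 called. COX17, a copper chaperone of the complex, stood at -0.26, -0.34 and -0.23, and COX7C at -0.08, -0.08 and -0.20. Of the tested complex I genes 2 of 4 were lower (median -0.13), of complex II and III and cytochrome c 3 of 4 (median -0.36), of ATP synthase 3 of 6 (median -0.03) and of the citric acid cycle 2 of 3 (median -0.01). UQCRC1, a core subunit of complex III, stood at 0.16, 1.17 and -1.76, so that its arrays disagreed more than its mean of -0.55 ± 0.26 (SE) shows. NDUFB3 stood at 7.57 on the second low diet array and at 0.10 and -1.35 on the others. No mitochondrially encoded gene was among the named genes. ETFB, a subunit of the flavoprotein that takes electrons from fatty acid oxidation, led the higher genes at 0.45, 0.01 and 0.93, with a fitted mean of 0.58 ± 0.20 (SE, unadjusted p = 0.0377, limma).

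The other genes that ranked higher in the PH cross were mostly either small in size or much higher on 1 array than on the others. RPS18, RPLP2, RPL8 and RPS3A, proteins of the cytosolic ribosome, had fitted means of 0.42, 0.36, 0.36 and 0.29. RPLP2 was the most even, at 0.31, 0.36 and 0.39, but only 2 of its 8 elements had a value on all 7 arrays, and those 2 elements alone gave 0.07. With the same restriction RPL8 and RPS3A turned to -0.22 and -0.13, while RPS18 stayed at 0.42. Over the whole ribosomal protein list 18 of 42 tested genes were higher and 24 lower, with a median of -0.03. RPL21 stood at 0.23, 0.16 and -1.07. Of the 42, 8 were above 0 on all 3 arrays (8.16% of named genes were) and 3 were below 0 on all 3.

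METTL3, a writer of RNA methylation, stood at 0.45, 4.87 and 1.53, RNF166, a ubiquitin ligase, at 0.53, 6.30 and 1.03, ADIRF, a regulator of adipogenesis, at 0.09, 3.94 and 1.51, and PTX3, a secreted pentraxin, at 0.16, 4.81 and 1.20. In each case the second low diet array was the highest, and RNF166 had a value there from 1 of its 2 elements. MYADM, a membrane protein, had a mean of 0.49, CTSK, the collagen-degrading cathepsin K, of 0.28, RBM8A, a part of the exon junction complex, of 0.28, and PIK3C3, a lipid kinase of autophagy, of 0.19. Their standard errors lay between 0.15 and 0.25. Some genes with a smaller p changed sides between arrays and are not ranked here. SERPINA3-3, a protease inhibitor, stood at -0.36, -1.14 and 6.55, LSP1, an actin-binding protein of leukocytes, at 0.01, -0.89 and 2.58, and PLIN2, which coats lipid droplets, at 0.11, -1.40 and -2.45.

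Adipocyte genes gave no direction that held across the arrays. Of the 11 tested genes of adipocytes and lipid storage 6 were higher and 5 lower in the PH cross, with a median of 0.25 and a range from -1.55 to 0.80. FABP4, the fatty acid carrier of adipocytes, stood at -0.43 on the first low diet array, 1.25 on the second and 0.09 on the high diet array, and its mean was 0.25 ± 0.58 (SE). The low diet arrays lay on opposite sides of 0. ADIPOQ, adiponectin, took the same course at -0.30, 1.25 and 0.23. Of 78 elements of FABP4, 44 of 60 lay below 0 on the first low diet array, 16 of 35 on the second and 22 of 68 on the high diet array. CD36, a fatty acid transporter, stood at -2.58, 5.36 and -0.67, CFD, the adipocyte protease adipsin, at -2.13, 5.26 and -0.92, and CIDEC, a lipid droplet fusion protein, at 0.49, -2.65 and 0.14. Over the 4 tested adipocyte markers the array medians were -0.37, 1.25 and 0.12.

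Among the lipogenic genes THRSP, a nuclear protein that raises lipogenesis, was on the same side on all arrays, at 0.47, 1.81 and 0.47 (mean 0.80 ± 0.51, SE), as was DGAT2, which makes triglyceride, at 0.57, 0.03 and 0.30 (mean 0.30 ± 0.21, SE). SREBF1, the transcription factor of lipogenesis, stood at -0.99, 3.52 and 0.26. Of the 4 tested genes of fatty acid synthesis 3 were higher, with a median of 0.50. FASN, fatty acid synthase, had no value on some array of the loop and stood at 1.07, 5.75 and -1.93, untested. FABP5 stood at -0.43 on the first low diet array and 1.52 on the high diet array with no value on the second, and SCD was not among the named genes. AQP7, the glycerol channel of adipocytes, stood at -2.75, -0.72 and -0.01, and GPD1, which supplies glycerol phosphate, at -0.15, -0.31 and -1.35.

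Collagen and matrix genes likewise lay on both sides. COL1A1 stood at -0.05, 1.03 and -0.48 and COL3A1 at -0.10, 0.79 and -0.33, and both fitted means were 0.01. On the second low diet array the averages stood well above the medians of the elements. The element medians of COL1A1 were 0.08, 0.09 and -0.27 and those of COL3A1 -0.01, -0.15 and -0.45 on the 3 arrays. COL1A2, the partner chain of COL1A1 in type I collagen, stood at -1.02, -0.10 and -0.32. In the list of other extracellular matrix genes 6 of 13 were lower, with a median of 0.02. FN1, fibronectin, stood at 0.01, -0.44 and 0.25, MGP, matrix Gla protein, at -0.22, 0.19 and -0.71, and CCN1, a matricellular protein, at -0.01, -3.98 and -0.15. Of the 4 tested fibroblast markers 3 were higher, with a median of 0.01, and DCN, decorin, stood at 0.10, -0.29 and 0.28. CAV1, for endothelial and mural cells, stood at -0.13, -0.57 and 0.49, and CD74, for immune cells, at 0.52, -0.41 and -0.05. No blood or nerve marker was tested.

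Chaperones were lower in the PH cross in 8 of 9 tested cases, with a median of -0.27, but 2 of the 9 were below 0 on all 3 arrays and none was called. HSPA8, the constitutive HSP70, stood at 0.23, 0.37 and -0.83, and HSPB1, a small heat shock protein, at 0.24, -0.06 and -0.92. Thus the high diet array was the low one in both genes. Of the myostatin pathway, growth regulator and myogenic factor list, which holds MUSTN1, 3 of 7 were lower, with a median of 0.09. Myostatin itself was not among the named genes. MYOG, a myogenic transcription factor, stood at -0.21, 3.70 and 1.76, IGFBP3 at -0.84, 4.61 and 1.35 and IGFBP5 at -0.07, 1.11 and -0.24, which are carriers of insulin-like growth factors. MATR3, a nuclear matrix protein, stood at 0.10, -0.02 and -0.26. Proteolysis genes were higher in 5 of 5 cases, with a median of 0.19 and 0 of the 5 above 0 on all 3 arrays. CTSB, a lysosomal protease, stood at 0.03, -0.02 and 0.64, and PSMD4, a proteasome subunit, at -0.13, -0.12 and 1.60. Translation factors were lower in 6 of 7 cases, with a median of -0.03. TPT1, a growth-related translational protein, stood at -0.82, 0.01 and -0.17, and EIF3H, a subunit of initiation factor 3, at -0.15, -2.42 and -0.24. TXNIP, an inhibitor of glucose uptake, stood at -0.09, 0.21 and 0.27, and PDK4, the kinase that shuts pyruvate out of the citric acid cycle, at -0.02, -0.12 and -0.24.

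**Figure D4:**
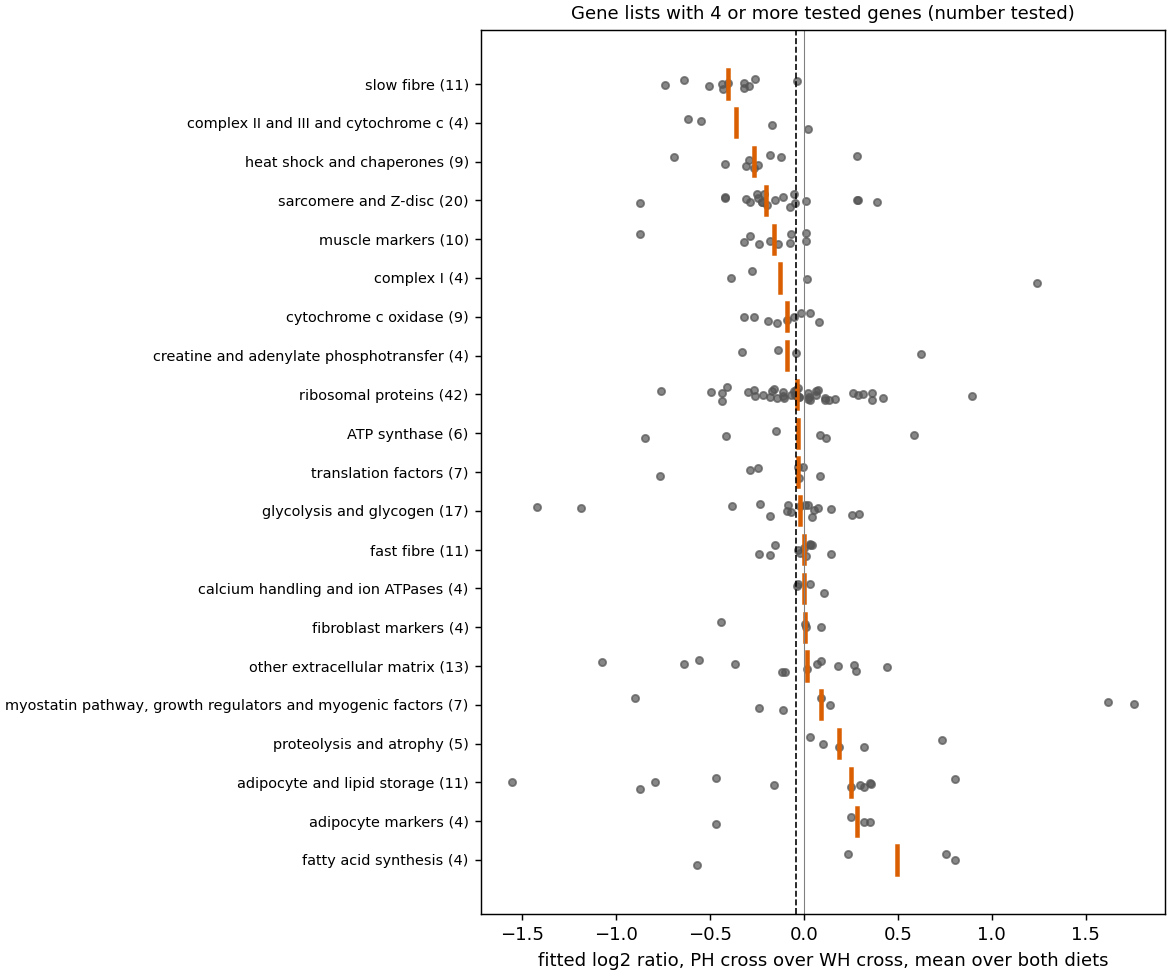
Fitted log2 ratio of PH over WH, mean over both diets (horizontal axis), for each tested gene (grey points) of the lists with 4 or more tested genes, with the list median in orange and the median of the 429 named genes (-0.04) as a dashed line. The slow fibre list lies wholly below 0 with a median of -0.40, and the other lists reach both sides of 0 except for proteolysis, whose 5 genes lie above it.

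Whether the breed difference depended on diet could be asked only through the whole loop, since on the 3 breed arrays diet and dye orientation change together and cannot be told apart. The ranking for each diet took genes with 1 sign on all 3 breed arrays, so that the sign of a ranked gene on the arrays was the same under both diets by construction. The same 5 lower genes were ranked for both diets. MUSTN1 was at -0.78 on the low and -1.02 on the high diet, CREG1 at -0.86 and -0.91, CA3 at -0.79 and -0.73, ATP5F1A at -1.02 and -0.66, and MYL2 at -0.71 and -0.77, and the interaction of MYL2 was 0.06 with an unadjusted p of 0.813 (limma). For TNNC1, whose averages hold the extreme elements mentioned above, the low diet value was -0.62 and the high diet value -0.25, with an unadjusted interaction p of 0.184 (limma). For MYOZ1 they were -0.34 and 0.04, and for ETFB 0.32 and 0.84, with unadjusted interaction p-values from limma of 0.0931 and 0.106. The element medians of MYOZ1 were 0.01, 0.07 and -0.04 on the 3 breed arrays, and so did not show its low diet value. Among the higher genes the diets lay further apart, with METTL3 at 1.45 on the low and 2.74 on the high diet, and RNF166 at 2.73 and 1.72. RBM8A, first of the genes with a positive interaction, was at 0.45 and 0.11, followed by LOC783033 at 0.35 and 0.00, LRRFIP1 at 0.46 and -0.21, RPS3A at 0.42 and 0.15, and ATP5IF1 at 0.21 and -0.04. RPL28 and EIF3H, with a negative interaction, were at -0.08 and 0.41 and at -1.49 and -0.04. On the breed arrays themselves RPL28 stood at 0.09, 0.29 and 0.14, and LRRFIP1 at 0.03, 0.00 and 0.23. The fitted sign was thus opposite to the arrays for RPL28 on the low diet and for LRRFIP1 on the high diet. The unadjusted interaction p-values from limma of these 7 ranked genes, RBM8A to EIF3H, lay between 0.114 and 0.278, and none was called. In the slow fibre list the median interaction, low minus high, was -0.21, beside 0.12 over all features. This was not particular to slow fibre genes. The median was -0.18 in the fast fibre list, -0.23 in the glycolytic and glycogen list and -0.31 over the muscle markers. It was above 0 for ribosomal proteins (0.14) and chaperones (0.23).

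The same genes were then set beside 2 other breed comparisons of the submission that share no array with this one. Holstein against Japanese Black, a dairy breed against a breed that marbles strongly, was measured on 18 arrays of the same table at time points T1 to T3. There 108 of 3087 features (3.5%) differed between the breeds, 60 of them lower in Holstein (1.94%), and 13 of 394 named genes (3.30%) were lower in Holstein. Of the 15 ranked lower genes of the PH cross, 13 were tested there and 4 were called lower in Holstein. These were CREG1 at -0.75 ± 0.12 (SE, adjusted p = 0.00144, limma), MYL2 at -0.63 ± 0.11 (SE, adjusted p = 0.00257, limma), CA3 at -0.58 ± 0.11 (SE, adjusted p = 0.00613, limma) and CRYAB at -0.44 ± 0.09 (SE, adjusted p = 0.00848, limma). For the first 3 of these the differences from the PH over WH value were -0.13, -0.11 and -0.17, with standard errors of 0.25 to 0.28.

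MUSTN1 lay on the other side, at 0.43 ± 0.12 (SE) in Holstein over Japanese Black. The difference between the 2 breed contrasts was -1.33 ± 0.28 (SE) with an adjusted p of 0.144 (limma), and no feature of 3087 passed that test (0%, with 114, or 3.69%, at an unadjusted p under 0.05). Of the 11 slow fibre genes 7 were below 0 in Holstein over Japanese Black, with a median of -0.03, and 2 were called. MYL2 was the lower of these, while MYL3 was higher in Holstein at 0.64 ± 0.16 (SE, adjusted p = 0.0355, limma), TNNC1 was at 0.02 and MB at -0.05. Of the 15 ranked higher genes, 14 were tested and THRSP alone was called, as lower in Holstein, at -1.42 ± 0.34 (SE, adjusted p = 0.0267, limma). FABP4 was also lower in Holstein, at -1.01 ± 0.18 (SE, adjusted p = 0.00278, limma), while COL1A2 was higher at 1.13 ± 0.15 (SE, adjusted p = 3.82e-04, limma). Over 394 named genes the correlation of the 2 breed contrasts was -0.01.

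The second comparison was the same pair of crosses at T1 to T3 on 20 arrays of another table. The tables may have been normalized separately, so that values are given side by side with no test between them. On these 20 arrays 731 of 17253 features (4.24%) differed, with unnamed elements counted singly and not per pair. Of the 429 genes 38 differed (8.86%), 26 of them lower in the PH cross (6.06%), while 49.4% of the 429 lay below 0. Over the 429 genes the correlation with the diet arrays was 0.01. Of the 15 ranked lower genes 4 lay below 0 at T1 to T3, with 2 called lower and 1 called higher. Of the 15 ranked higher genes 11 lay below 0 there, and none was called. MUSTN1 was lower in the PH cross there too, at -0.67 ± 0.11 (SE, adjusted p = 0.00489, limma), as was CRYAB at -0.61 ± 0.12 (SE, adjusted p = 0.00916, limma). CSRP3 stood at -0.96 ± 0.18 (SE, adjusted p = 0.00765, limma) and ANKRD1 at -0.42 ± 0.11 (SE, adjusted p = 0.0417, limma). MYL2 stood at 0.01 ± 0.06 (SE), CREG1 at 0.05 ± 0.08 (SE), CA3 at -0.06 ± 0.14 (SE) and TNNC1 at 0.09 ± 0.06 (SE), and the median of the 11 slow fibre genes was 0.02. LDHB was higher in the PH cross, at 0.36 ± 0.08 (SE, adjusted p = 0.0168, limma). Of the 42 ribosomal protein genes 40 lay below 0 at T1 to T3 (49.4% of the 429 did), with a median of -0.16. Of these genes 5 were called lower in the PH cross (6.06% of the 429 were) and 0 higher.

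Several other genes were called on those 20 arrays. FABP4 was lower in the PH cross at -0.51 ± 0.07 (SE, adjusted p = 0.00167, limma), ADIPOQ at -0.56 ± 0.10 (SE, adjusted p = 0.00763, limma), COL1A1 at -0.46 ± 0.08 (SE, adjusted p = 0.00514, limma) and FN1 at -0.45 ± 0.08 (SE, adjusted p = 0.00825, limma). ATP2A1, the calcium pump of fast fibres, was higher at 0.47 ± 0.07 (SE, adjusted p = 0.00329, limma), MYH1 at 0.32 ± 0.07 (SE, adjusted p = 0.0139, limma) and CKM at 0.49 ± 0.11 (SE, adjusted p = 0.0211, limma). CKM was thus on the opposite side from its averages on the diet arrays, which were below 0 on all 3. The medians of its elements there were -0.005, -0.20 and 0.11, and so did not keep to 1 side. On the diet arrays the standard errors of FABP4, ADIPOQ, COL1A1 and FN1 were 0.58, 0.66, 0.46 and 0.59, larger than the size of these values.

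**Figure D5:**
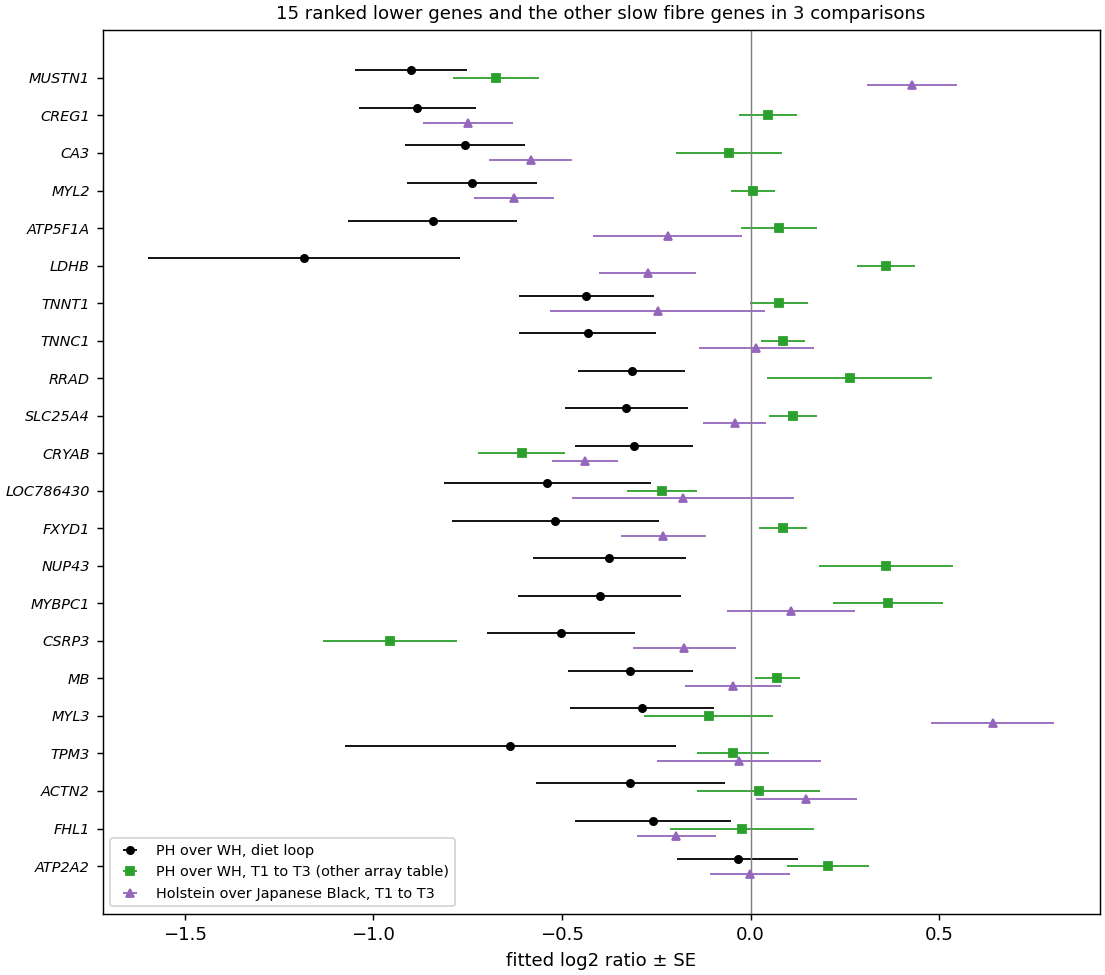
Fitted log2 ratios with their SE (horizontal axis) of the 15 ranked lower genes and the other slow fibre genes in PH over WH of the diet loop (black), PH over WH at T1 to T3 (green, other table) and Holstein over Japanese Black (purple). MUSTN1 and CRYAB lie below 0 in both PH over WH comparisons, whereas MYL2, CA3 and CREG1 lie below 0 in the diet loop and in Holstein over Japanese Black and near 0 at T1 to T3.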

How the data were processed

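The authors deposited log2 ratios of Cy5 over Cy3 per element, per the labels and file values; scanner, background correction and normalization of the diet arrays are not given in the sources used here. The median of each array was subtracted from its values, and ratios at the table's upper limit of 16.61 were set to missing. Elements were averaged per gene, and unnamed neighbouring duplicates per pair, except on the T1 to T3 arrays, where unnamed elements entered singly. Features with values on all 7 arrays were fitted with limma 3.58.1 (R 4.3.3), with terms for the 4 groups and for the dye, leaving 3 residual degrees of freedom, with Benjamini-Hochberg adjustment over all features and a threshold of 0.05, two-sided. Features with values on at least 15 of the 18 Holstein and Japanese Black arrays entered a joint fit with the loop, and those on at least 16 of the 20 T1 to T3 arrays a separate fit. The fits were repeated with each array left out and with other dye, replicate block, centring, scaling, filter, element, spread and direction settings. The loop fit was tested on simulated data. Gene names came from the platform annotation, and 52 and 25 columns of other samples in the 2 tables were not used. Named genes were up to 15 per direction past the threshold, places left being filled by the smallest p with 1 sign on all 3 breed arrays, up to 5 per direction for each diet and the interaction, the first 3 of each list, markers and a short list always shown. SERPINA3-3, LSP1 and single genes with uneven arrays were added after their values were seen. Members and the 31 lists were chosen with earlier results of these data known. The depth of an array cannot be given, and the number of arrays limits the precision.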

Additional observations from a re-analysis of the deposited data

How the results depend on the processing

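The counts of 0 features for the mean over both diets, the low diet, the high diet and the interaction were recomputed under up to 22 alternatives, of which array weights, turning the sign of the high diet array, averaging only elements with a value on all 7 arrays and leaving out elements 1 to 2400 were chosen after seeing the data. The mean over both diets and the interaction stayed at 0 in all that could be run (the interaction could not be fitted on the 3 breed arrays alone). Leaving out each array in turn gave 0 to 15 features for the low diet and 0 to 0 for the other 3, and the 15, without the second PH low over WH low array, were unnamed and all from elements 1 to 2400. The spread shared with the Japanese Black and Holstein arrays gave 2 for the low diet, both from those elements, and no centring gave 1 for the high diet. With the replicate number as a block all 4 counts were 0. Numbers are shared only as labels: differences between replicates correlated at -0.40, -0.16 and 0.21 between the 3 links with 2 arrays, and no crossing was tried. For the difference from Holstein over Japanese Black, leaving out 1 breed array gave 5 (without the high diet array) to 47 (without the second low diet array, 40 of them from elements 1 to 2400), and 29 without the first. MAD scaling gave 4, values at the limit kept gave 1 and single elements gave 5. Without the high diet array the loop is open and no dye term was fitted.

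Gene values had no call to lose. Under 21 alternatives, apart from the turned high diet array, MYL2 lay between -0.86 and -0.67, CA3 between -0.90 and -0.65, MUSTN1 between -1.06 and -0.52 and CREG1 between -1.08 and -0.40, and the slow fibre median between -0.46 and -0.31. With the same elements on all arrays TNNT1 was at -0.02 and PLIN2 at -0.08, and without elements 1 to 2400 NEB was at -0.09. FABP4 and ADIPOQ changed sign in 3 alternatives each, among them the same elements on all arrays (-0.27 and -0.07), and COL1A1 and COL3A1 in 5 each. With the sign of the high diet array turned, against its dye labels, 15 of the 15 lower and 14 of the 15 higher ranked genes changed sign and the slow fibre median became 0.18.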

Other observations

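Among the 10 unnamed features with the smallest unadjusted p in the mean over both diets, one pair of duplicate spots stood at 2.78, 1.41 and 2.88 and another at 2.52, 4.42 and 3.41 on the first low, second low and high diet arrays, above 0 on each. One further pair stood at -0.66, -0.43 and -0.85, below 0 on each, in the range of MUSTN1 and MYL2. The pair with the smallest p of all stood at 0.46, 0.09 and -5.70, so that the high diet array alone was far from 0. These pairs have no gene name in the tables used here, and their adjusted p-values were 0.331 for the last and 0.999 for the others (limma).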
